A study of Mus musculus with 9 samples.

Results

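Mammalian cells read double-stranded RNA as a sign of viral infection. The RIG-I-like helicases Ddx58 (RIG-I), Ifih1 (MDA5) and Dhx58 (LGP2) bind it in the cytosol and signal through the mitochondrial adaptor Mavs, Tlr3 binds it in endosomes, and the kinase Eif2ak2 (PKR) answers it by phosphorylating the translation factor eIF2. Mouse oocytes are unusual in that they process their own long double-stranded RNA with Dicer into endogenous small interfering RNAs and are described as having a weak interferon response. The 9 genes described here are Ddx58, Ifih1, Dhx58, Ddx60, Tlr3, Mavs, Zbp1, Eif2ak2 and Adar, which sense, relay or edit double-stranded RNA. They were chosen by symbol: every probe set annotated to exactly 1 of these genes was taken, which gave 9 probe sets, 1 for each gene, of 35557 probe sets on the array, and 9 of 19938 genes. No probe set annotated to several genes contained any of them.

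RNA was measured on 9 arrays of metaphase II oocytes, the ovulated eggs that await fertilization: 3 arrays of Dicer knockout, 3 of Dgcr8 knockout and 3 of wild-type oocytes, all labelled as strain C57BL/6 and as biological replicates. Ovulation had been induced in all females with 7.5 IU each of pregnant mare serum gonadotropin and human chorionic gonadotropin, the eggs were taken 16 h after the second hormone, and cumulus cells were removed with hyaluronidase at 0.3 mg/ml. The alleles, any Cre driver, the ages of the females and the number of eggs per array were not stated in the labels. Dicer makes both microRNAs and endogenous small interfering RNAs, whereas Dgcr8 serves only the microRNA route, so the comparisons ask whether eggs that cannot dice long double-stranded RNA differ in the genes that sense it.

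Dicer1 had a log2 signal of 10.72 ± 0.13 in Dicer knockout, 11.68 ± 0.06 in Dgcr8 knockout and 11.67 ± 0.01 in wild-type eggs, and Dgcr8 had 8.46 ± 0.23, 5.71 ± 0.26 and 8.96 ± 0.10 in the same order (SD, n = 3 each). The mean log2 signal of 15 oocyte markers, such as the zona pellucida genes, lay between 11.36 and 11.51 in the Dicer knockout arrays, between 11.25 and 11.37 in the Dgcr8 knockout arrays and between 11.3 and 11.37 in the wild-type arrays. Of these 15 markers, 2 were called higher and none lower in Dicer knockout against wild-type eggs, the zona gene Zp2 (log2 difference 0.40, adjusted p = 0.0199) and the oocyte transcription factor Nobox (0.24, adjusted p = 0.0353); 3 were called higher against Dgcr8 knockout eggs. Arrays of the same genotype correlated across genes at an r of at least 0.991. Since each array pools RNA, fewer contributing cells of a type and less RNA per cell cannot be told apart.

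Of the 9 genes, Ddx60 and Tlr3 were lower in Dicer knockout than in wild-type eggs, none was higher, and 7 did not pass the test. Here a gene counts as changed at an adjusted p under 0.05 in a limma fit of all 9 arrays, adjusted over the 17324 genes with a log2 signal of at least 4 in at least 3 arrays; all 9 genes passed that filter, and 8 of them lay at or above 4 in every array. Over all genes tested, 11.3% passed in this comparison and 6.47% passed as lower. With only 9 genes, a count of 2 is too small to read against those shares. The text therefore rests on the sizes and not on the count. At an unadjusted p under 0.05, 3 of the 9 passed, beside 23.7% of all genes.

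The promoters of the 4 genes that were lower in Dicer knockout eggs in at least 1 comparison are shown because interferon-stimulated genes share a short promoter element, with a core of 2 GAAA units separated by any 2 bases, bound by interferon-activated factors. Capitals mark each match to that 10-base core on either strand. The windows run from 250 bases before to 50 bases after the RefSeq start (GRCm38.p6), 5′ to 3′ along the gene.
Ddx60, chr8:61927837-61928136, plus strand: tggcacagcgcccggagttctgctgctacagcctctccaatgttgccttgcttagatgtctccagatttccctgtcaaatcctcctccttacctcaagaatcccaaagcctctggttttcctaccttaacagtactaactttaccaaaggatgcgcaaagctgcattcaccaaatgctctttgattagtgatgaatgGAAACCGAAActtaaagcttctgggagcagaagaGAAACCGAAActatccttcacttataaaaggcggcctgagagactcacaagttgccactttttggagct
Tlr3, chr8:45410331-45410630, minus strand: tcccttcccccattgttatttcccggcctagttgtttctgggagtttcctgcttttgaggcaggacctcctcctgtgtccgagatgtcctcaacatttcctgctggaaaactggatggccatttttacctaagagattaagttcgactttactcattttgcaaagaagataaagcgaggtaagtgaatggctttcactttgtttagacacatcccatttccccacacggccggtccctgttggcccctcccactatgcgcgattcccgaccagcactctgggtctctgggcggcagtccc
Ddx58, chr4:40239776-40240075, minus strand: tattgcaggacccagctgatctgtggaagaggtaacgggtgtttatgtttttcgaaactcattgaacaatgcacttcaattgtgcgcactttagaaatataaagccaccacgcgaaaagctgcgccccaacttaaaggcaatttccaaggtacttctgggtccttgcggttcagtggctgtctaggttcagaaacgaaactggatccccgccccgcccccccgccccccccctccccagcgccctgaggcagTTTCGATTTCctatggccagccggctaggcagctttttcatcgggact
Eif2ak2, chr17:78882523-78882822, minus strand: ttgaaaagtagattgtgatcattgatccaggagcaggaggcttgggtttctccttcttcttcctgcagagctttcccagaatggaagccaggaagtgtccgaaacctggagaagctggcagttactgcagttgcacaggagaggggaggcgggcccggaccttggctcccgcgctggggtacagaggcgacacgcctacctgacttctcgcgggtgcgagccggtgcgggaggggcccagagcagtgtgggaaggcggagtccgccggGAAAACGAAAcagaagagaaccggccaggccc
The Ddx60 window held 2 matches, beginning 53 and 19 bases before the start, and the Ddx58 and Eif2ak2 windows held 1 match each. The Tlr3 window held none; it surrounds a RefSeq start that lies inside the gene span given below, downstream of its outermost 5′ end, and the sequence at that end was not searched. Of the 7 members with a promoter in the table, 4 had a match, the fourth being Ifih1, and Mavs and Adar (3 windows, all inside its gene span) had none. Forms of the element with another spacing were not searched for. A window without a match, such as those of Tlr3 and Adar, is therefore not shown to lack such an element. Of all 27025 genes with a promoter in the table, 3.99% had a match; of all 32851 windows, 3.44% held at least 1 and 0.225% at least 2. Of the genes called lower against wild-type eggs, Ddx60 thus held matches and Tlr3 held none in the window searched. Ddx58, Eif2ak2 and Ifih1, which held 1 match each, did not pass against wild-type eggs.

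Ddx60, an interferon-inducible helicase reported as a cofactor of RIG-I-like receptors, showed the largest difference of the 9. Its gene lies on chromosome 8 from 61928073 to 62037704 (GRCm38.p6; Entrez gene 234311, probe set 10571984). Its log2 signal was 4.87, 4.87 and 4.77 in the 3 Dicer knockout arrays, 7.20, 6.40 and 6.56 in the Dgcr8 knockout arrays, and 7.14, 6.80 and 6.32 in the wild-type arrays. Every Dicer knockout array lay below every other array, with a gap of 1.45 to the lowest wild-type array, while the Dgcr8 knockout and wild-type values interleaved.

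The Ddx60 difference between Dicer knockout and wild-type eggs was -1.92 ± 0.23 (log2, SE; limma adjusted p = 0.000541), which is 3.77-fold lower, with a 95% interval of 2.65-fold to 5.37-fold. It ranked 7th from the lowest among the 17324 differences of that comparison, in which 0.502% of genes were lower by at least 2-fold and called. Against Dgcr8 knockout eggs the difference was -1.88 ± 0.23 (log2, SE; adjusted p = 0.000571). Between Dgcr8 knockout and wild-type eggs it was -0.03, with a 95% interval of -0.54 to 0.48, the widest interval of the 9 genes. The spread within a genotype also differed: the SD of the log2 signal was 0.06 in Dicer knockout, 0.42 in Dgcr8 knockout and 0.41 in wild-type eggs. The 3 low values were close to the filter at 4, and no detection call was given, so how far above background they lay is not known.

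Tlr3, the endosomal receptor for double-stranded RNA, was the other gene that was lower in eggs without Dicer. It lies on the same chromosome, from 45395665 to 45411075 (Entrez gene 142980, probe set 10578493). Its log2 signal was 6.10, 6.13 and 6.13 in the Dicer knockout arrays, 6.91, 6.73 and 6.99 in the Dgcr8 knockout arrays, and 7.02, 7.16 and 6.74 in the wild-type arrays. As with Ddx60, all 3 Dicer knockout arrays lay below the other 6 and close to each other, with an SD of 0.02 against 0.13 in Dgcr8 knockout and 0.21 in wild-type eggs.

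The Tlr3 difference between Dicer knockout and wild-type eggs was -0.85 ± 0.12 (log2, SE; adjusted p = 0.00133), or 1.80-fold lower, with a 95% interval of 1.50-fold to 2.16-fold. Against Dgcr8 knockout eggs it was -0.76 ± 0.12 (log2, SE; adjusted p = 0.00238). Dgcr8 knockout and wild-type eggs differed by -0.09 (95% interval -0.36 to 0.17). Tlr3 and Ddx60 kept their direction and stayed past the threshold with each array left out in turn and under each of the 10 other fits tried.

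Ddx58, the RIG-I helicase that binds short double-stranded RNA with a 5′ triphosphate, lay at the edge of the threshold. Its gene is on chromosome 4 from 40203777 to 40239825 (Entrez gene 230073, probe set 10512067). Its log2 signal was 6.09, 6.27 and 6.24 in Dicer knockout, 6.65, 6.62 and 6.42 in Dgcr8 knockout, and 6.61, 6.56 and 6.43 in wild-type arrays. The Dicer knockout arrays did not overlap with those of either other genotype, but the gap was small, 0.16 to the wild-type arrays.

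The Ddx58 difference between Dicer knockout and wild-type eggs was -0.33 ± 0.10 (log2, SE) and missed the threshold (adjusted p = 0.0589). It passed under 5 of the 10 other fits, with adjusted p between 0.0355 and 0.0892 over all 10, and without Dgcr8 knockout replicate 3 (0.0472). Against Dgcr8 knockout eggs it was called lower, by -0.37 ± 0.10 (log2, SE; adjusted p = 0.0350), and that call was lost without either of Dicer knockout replicates 1 (0.107) and 3 (0.0581), Dgcr8 knockout replicates 1 (0.123) and 2 (0.0999), or wild-type replicates 1 (0.0504) and 2 (0.0558). Non-overlap in the lower direction was seen for 3 of the 9 genes in Dicer knockout against wild-type eggs, Ddx60, Tlr3 and Ddx58, where 16.1% of all genes showed it. The same 3 were below all Dgcr8 knockout arrays, where 15.9% of all genes showed it.

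**Figure D1:**
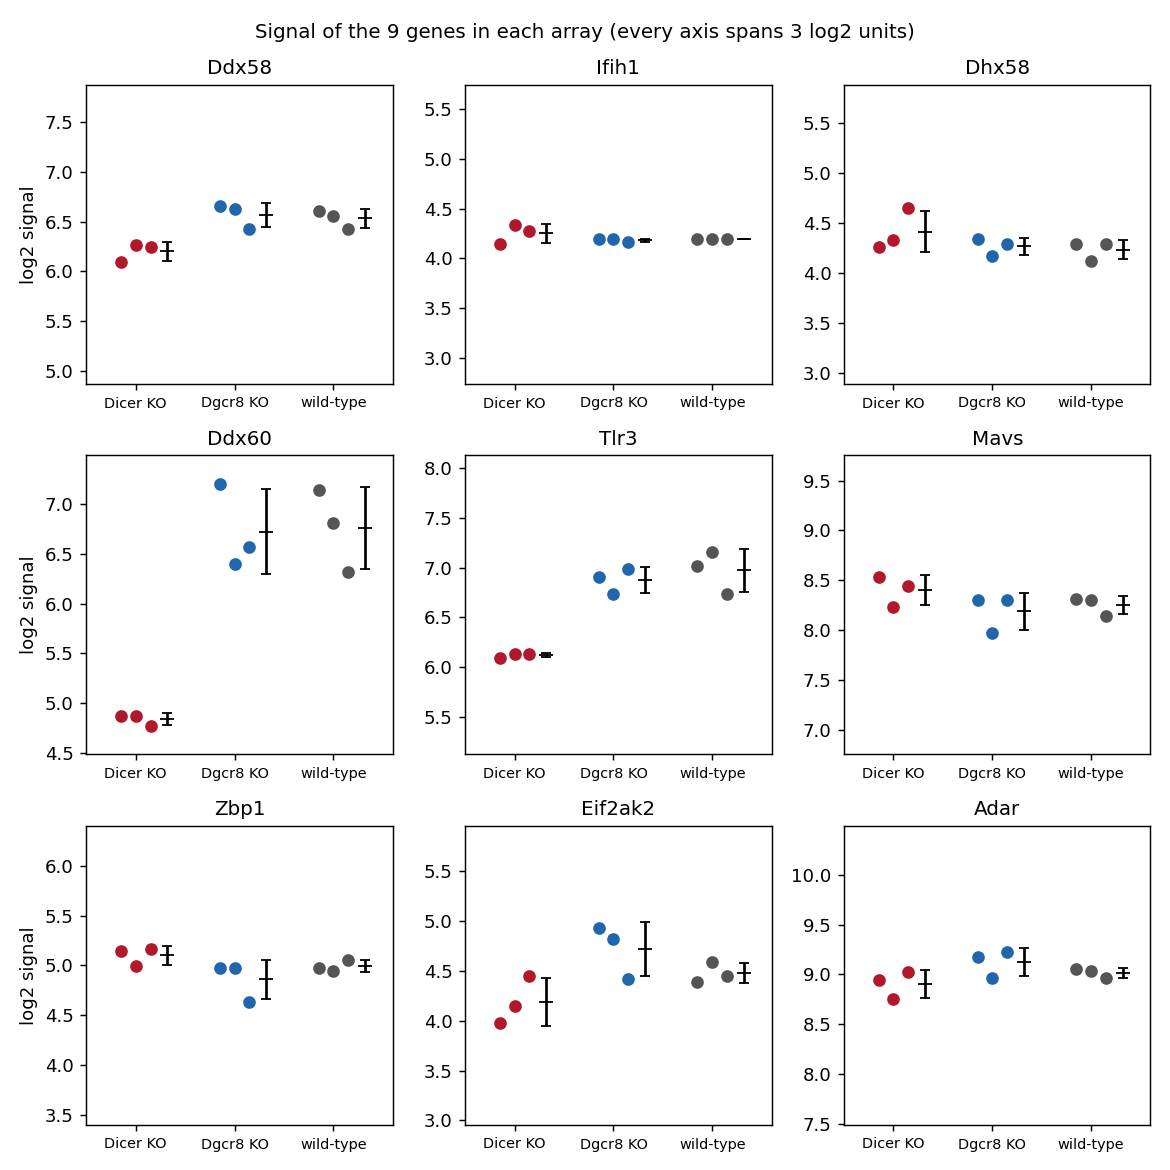
Log2 signal of each of the 9 genes in every array, with Dicer knockout (Dicer KO, red), Dgcr8 knockout (Dgcr8 KO, blue) and wild-type (grey) arrays as points and the mean ± SD of each group (n = 3) in black beside them; every axis spans the same number of log2 units. Ddx60 at 4.77 to 4.87 and Tlr3 at 6.10 to 6.13 in Dicer knockout arrays stand apart from all other arrays, Ddx58 is slightly lower there, and the other genes overlap between Dicer knockout and wild-type arrays.

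The other RIG-I-like receptors did not pass. Ifih1 (MDA5; chromosome 2), which binds long double-stranded RNA, had a log2 signal of 4.14, 4.34 and 4.27 in Dicer knockout, 4.19, 4.19 and 4.16 in Dgcr8 knockout, and 4.19 in all 3 wild-type arrays. The Dicer knockout arrays lay on both sides of the wild-type value. The difference was 0.06, with a 95% interval of -0.10 to 0.22 (log2; adjusted p = 0.709). Dhx58 (LGP2; chromosome 11), which lacks the signalling domains of the other receptors and modulates them, had 4.26, 4.33 and 4.65 in Dicer knockout, 4.34, 4.17 and 4.29 in Dgcr8 knockout, and 4.29, 4.12 and 4.29 in wild-type arrays. Only Dicer knockout replicate 3 stood out, and the difference from wild-type of 0.18 had an interval of -0.06 to 0.42 (adjusted p = 0.382). Signals of Ifih1 and Dhx58 were within 1 log2 unit of the filter at 4 in all 9 arrays, so these values limit what could be seen of either gene.

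Several of these signals also repeat exactly across arrays. The Ifih1 value was identical in 5 of the 9 arrays, and 1 value each of Dhx58, Mavs and Zbp1 recurred in 3. Among all genes tested, 27.3% had the same value in at least 3 arrays, so this is a common feature of the deposited table; the SD of 0 for Ifih1 in wild-type eggs is therefore no measure of its replicate error.

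Mavs, the adaptor on which the RIG-I-like receptors converge (chromosome 2), had a log2 signal of 8.53, 8.23 and 8.44 in Dicer knockout, 8.30, 7.97 and 8.30 in Dgcr8 knockout, and 8.31, 8.30 and 8.15 in wild-type arrays. The groups overlapped. The difference between Dicer knockout and wild-type eggs was 0.15 (log2; 95% interval -0.11 to 0.41; adjusted p = 0.522), and that between Dgcr8 knockout and wild-type eggs was -0.06 (interval -0.32 to 0.20).

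Zbp1, a sensor of Z-form nucleic acids that can trigger necroptosis (chromosome 2), had 5.14, 4.99 and 5.17 in Dicer knockout, 4.97, 4.97 and 4.63 in Dgcr8 knockout, and 4.97, 4.94 and 5.06 in wild-type arrays. Its Dicer knockout and wild-type arrays overlapped, with a difference of 0.11 (log2; interval -0.12 to 0.34; adjusted p = 0.619). All Dicer knockout arrays were above the Dgcr8 knockout arrays, but only by 0.019, and the difference of 0.24 did not pass (adjusted p = 0.169); 10.2% of all genes showed such non-overlap in the higher direction.

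Eif2ak2 (PKR; chromosome 17) had a log2 signal of 3.98, 4.15 and 4.45 in Dicer knockout, 4.94, 4.82 and 4.42 in Dgcr8 knockout, and 4.39, 4.59 and 4.45 in wild-type arrays. The Dicer knockout values reached from below all other arrays up to the middle of the wild-type ones. Signals of Eif2ak2 were close to the filter at 4 in all 9 arrays, so these values limit what could be seen of this gene. Against wild-type eggs the difference was -0.29 (log2; 95% interval -0.62 to 0.05; adjusted p = 0.299). Against Dgcr8 knockout eggs it was called lower, by -0.53 ± 0.15 (log2, SE; adjusted p = 0.0439), although the groups overlapped. This call was lost with 7 of the 9 arrays left out in turn (adjusted p between 0.0164 and 0.152) and in 5 of 9 other fits, and 7.92% of all genes were called lower in that comparison.

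Adar, the enzyme that deaminates adenosines in double-stranded RNA and thereby keeps cellular RNA from activating MDA5, had 8.94, 8.75 and 9.02 in Dicer knockout, 9.17, 8.96 and 9.23 in Dgcr8 knockout, and 9.05, 9.03 and 8.96 in wild-type arrays (chromosome 3). All 3 groups overlapped. The differences were -0.11 between Dicer knockout and wild-type eggs (log2; interval -0.32 to 0.10; adjusted p = 0.574) and 0.11 between Dgcr8 knockout and wild-type eggs (interval -0.10 to 0.32).

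**Figure D2:**
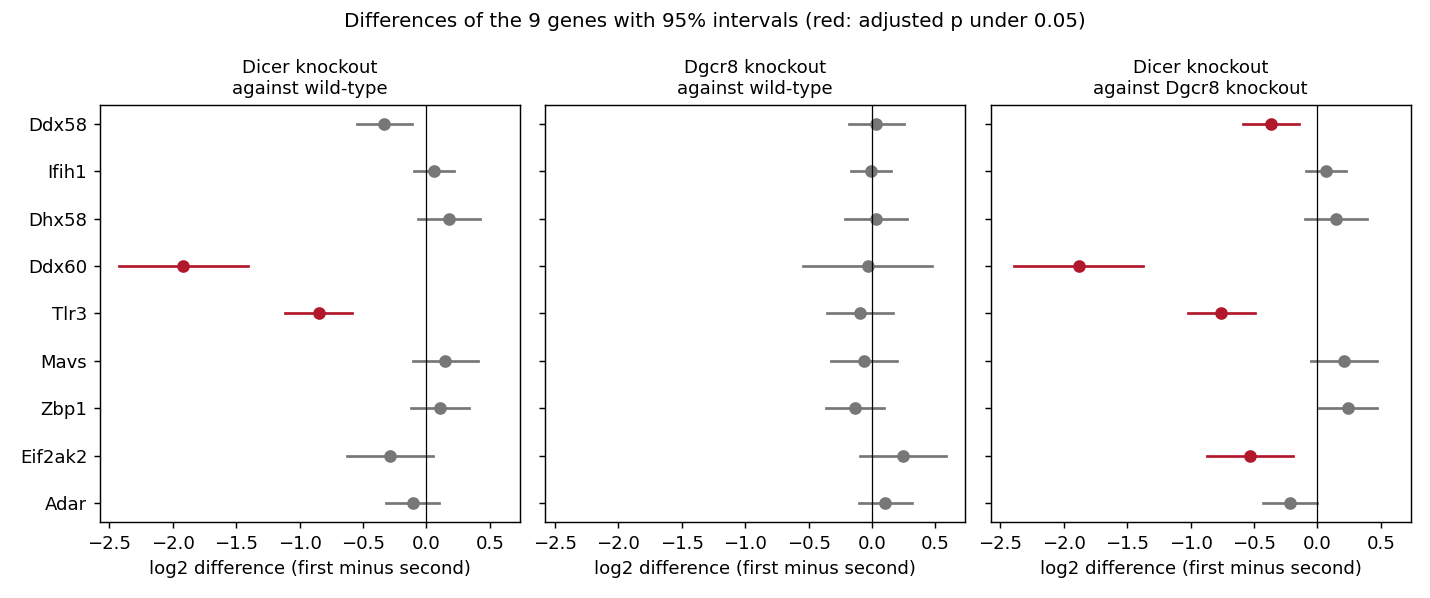
Log2 differences of the 9 genes with 95% intervals in Dicer knockout against wild-type, Dgcr8 knockout against wild-type and Dicer knockout against Dgcr8 knockout eggs; red marks an adjusted p under 0.05 over all genes. Ddx60 and Tlr3 are red in both comparisons that hold Dicer knockout eggs, Ddx58 and Eif2ak2 only in the last, and no interval excludes 0 in the middle panel.

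In Dgcr8 knockout against wild-type eggs, limma called none of the 9 genes, none had an unadjusted p under 0.05, and the groups of all 9 overlapped. Over all genes, 0.0231% were called there (0.0173% higher and 0.00577% lower), 2.64% had an unadjusted p under 0.05, and the groups did not overlap for 3.02% in the lower and 3.52% in the higher direction. Their differences lay between -0.13 for Zbp1 and 0.25 for Eif2ak2 on the log2 scale, and the 95% half-widths between 0.16 for Ifih1 and 0.51 for Ddx60. In Dicer knockout against Dgcr8 knockout eggs, 4 of the 9 were called lower and none higher, where 13.4% of all genes were called (5.48% higher); 6 had an unadjusted p under 0.05, beside 26.1% of all genes; with only these 2 genotypes in the fit, or with a replicate block, 2 were called. These comparisons share arrays, so their values for a gene are not independent of each other. The median difference of the 9 genes between Dicer knockout and wild-type eggs was -0.11, with 5 of 9 below 0, beside a median of -0.03 and 57.9% below 0 over all genes tested.

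**Figure D3:**
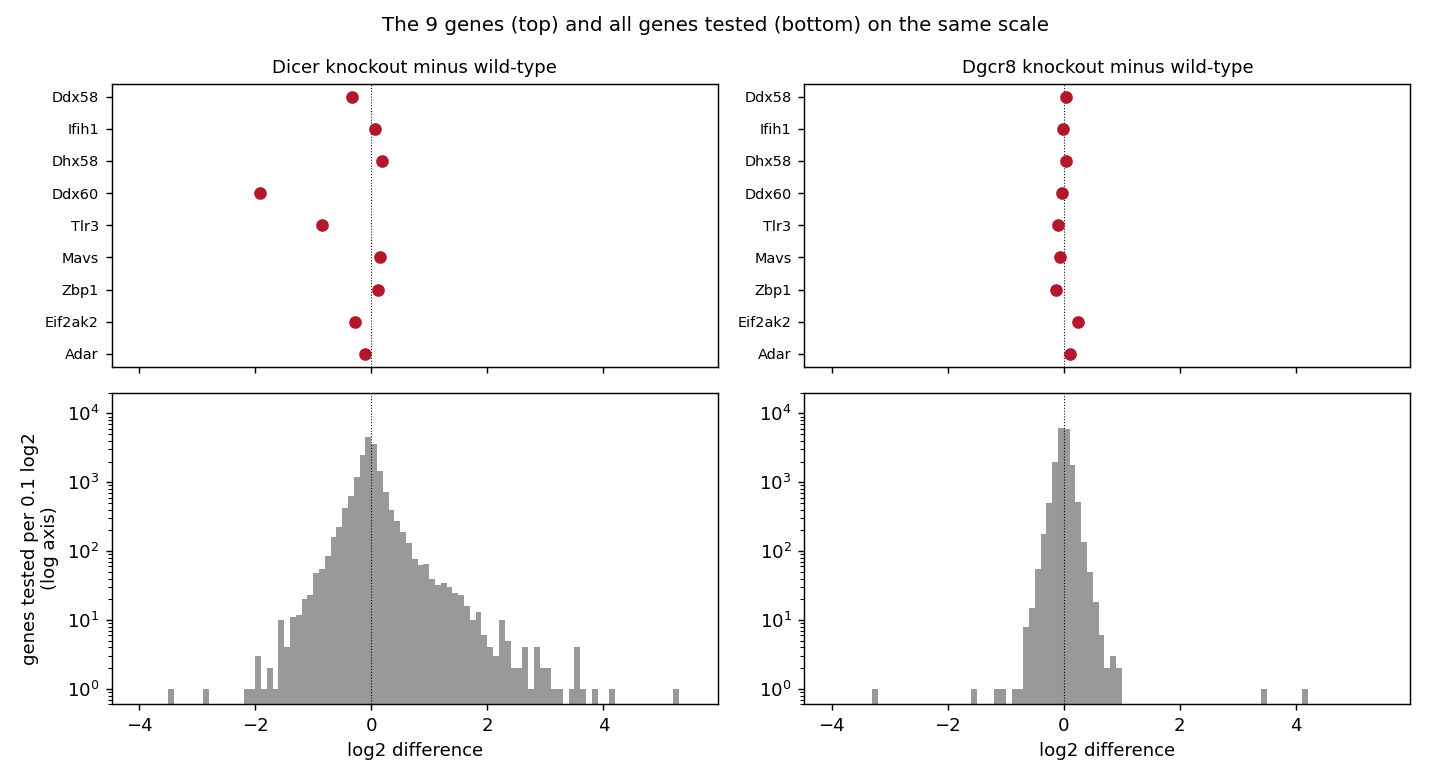
Log2 differences of the 9 genes (red points, top) above the distribution of all 17324 genes tested (grey bars, bottom, log axis) for Dicer knockout minus wild-type and for Dgcr8 knockout minus wild-type. Ddx60 at -1.92 lies in the thin lower tail and Tlr3 at -0.85 on its slope, and the other 7 fall within the bulk on the left and all 9 on the right.

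The rest of the pathway, in 7 lists of other genes, showed no common direction in Dicer knockout eggs. Of 148 genes listed, 125 were tested; 6 were called higher and 8 lower, or 11.2%, near the 11.3% of all genes, with a median log2 difference of -0.02. None of the 125 was called by limma in Dgcr8 knockout against wild-type eggs, and 2 had an unadjusted p under 0.05 there.

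In the relay from Mavs and Tlr3 to the interferon regulatory factors, 1 of 26 genes was called. Cyld, a deubiquitinase that restrains RIG-I signalling, had 8.27, 7.91 and 8.05 in Dicer knockout arrays, against 7.36, 6.87 and 7.24 in wild-type arrays, a difference of 0.92 ± 0.19 (log2, SE; adjusted p = 0.0103). Its Dicer knockout arrays all lay above the wild-type ones, as did those of 10% of all genes.

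Of 15 interferon, receptor and JAK-STAT genes, 2 were called, both lower. The receptor kinase Jak1 had 10.50, 10.43 and 10.41 in Dicer knockout arrays, against 10.76, 10.75 and 10.74 in wild-type arrays (difference -0.30 ± 0.05, log2, SE; adjusted p = 0.00209), without overlap. Stat2, which carries the type I interferon signal to the nucleus, differed by -0.48 (adjusted p = 0.0427), a call that held with only 2 of the 9 arrays left out in turn. Ifnar1, a chain of the type I interferon receptor, differed by 0.33 (adjusted p = 0.109) and was called higher only against Dgcr8 knockout eggs (0.40, adjusted p = 0.0491); that call was lost with 7 of the 9 arrays left out in turn.

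Of 27 interferon-stimulated genes, 1 was called higher and 2 lower, 11.1% in all, with a median log2 difference of -0.05. Several of them lay close to the filter at 4, with wild-type means of 4.28 for Mx1, 4.54 for Rsad2 and 4.89 for Ifit1. Ifit2, Ifit3, Mx2 and Herc6 did not pass that filter and were not tested. For such genes the absence of a call does not show that they were unchanged, and the median is limited likewise. Dtx3l, a ubiquitin ligase that works with Parp9, had 5.95, 5.81 and 6.33 in Dicer knockout arrays, against 6.96, 7.08 and 7.46 in wild-type arrays, and fell by 1.14 ± 0.17 on the log2 scale (SE; adjusted p = 0.00225). Ifitm3, which blocks viral entry, had 9.74, 9.90 and 9.78 in Dicer knockout arrays, against 10.38, 10.24 and 10.34 in wild-type arrays (difference -0.51, adjusted p = 0.00121). Trim30a went the other way, with 9.72, 10.08 and 10.16 in Dicer knockout arrays, against 9.22, 9.02 and 9.11 in wild-type arrays (difference 0.87, adjusted p = 0.00117). For all 3 genes the Dicer knockout and wild-type arrays did not overlap, where 16.1% of all genes showed non-overlap in the lower and 10% in the higher direction. The calls of Dtx3l, Ifitm3, Trim30a, Jak1 and Cyld held with each array left out in turn and under each of the 10 other fits.

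The 2′-5′ oligoadenylate synthetase family includes sensors of double-stranded RNA that activate RNase L, but not every member does so. Of 13 OAS and RNase L genes, 2 were called higher and 2 lower. Whether the genes named here make active synthetases was not tested. The log2 differences from wild-type eggs were 0.60 for Oas3 (adjusted p = 0.0219), 0.17 for Oas1e (0.0199), -0.68 for Oas1f (0.0197) and -0.46 for Oas1b (0.0455), the last named after its value was seen. Each of these 4 calls was lost with some arrays left out, from 2 of 9 arrays for Oas1f to 7 of 9 for Oas1b. Of the 10 other fits, Oas1b was called in 5, Oas1e in 7, and Oas1f and Oas3 in 9 each. Oas1e was lost, for example, after quantile normalization (0.09, adjusted p = 0.137). The Oas1 genes are close paralogs, and whether their probes tell them apart was not tested.

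Among 22 other double-stranded RNA-binding and editing genes, Dus2, a tRNA dihydrouridine synthase reported to inhibit PKR, was called, with a difference of -0.44 (adjusted p = 0.0112; 0.0513 without wild-type replicate 2). Of 17 genes of the eIF2 kinase arm, the stress transcription factor Atf4 was called higher (0.41, adjusted p = 0.0135; 0.052 without Dicer knockout replicate 1 and 0.057 without wild-type replicate 2). Dnajc3, a chaperone that inhibits eIF2 kinases, was called lower (-0.26, adjusted p = 0.0211), a call lost without Dicer knockout replicate 1 (0.0613) and without wild-type replicates 1 (0.0766) and 2 (0.0741).

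Of 5 partners of Zbp1 in cell death, Cflar, the cellular inhibitor of caspase-8, was called higher. Its brightest probe set had 9.59, 9.55 and 9.68 in Dicer knockout arrays, 7.30, 7.49 and 7.79 in Dgcr8 knockout arrays and 7.01, 6.75 and 7.16 in wild-type arrays, a difference of 2.63 ± 0.14 (log2, SE; adjusted p = 3.39e-06). The Dicer knockout arrays lay far above those of both other genotypes for this probe set. It was picked by its mean over all 9 arrays, those of Dicer knockout eggs included. In wild-type eggs alone another probe set of Cflar was brighter, with a mean of 7.03 against 6.97. The choice thus depended on the group in which it was high. The other 2 probe sets of Cflar differed by only 0.01 (adjusted p = 0.982) and 0.04 (adjusted p = 0.933) between Dicer knockout and wild-type eggs. The mean of the 3 probe sets thus gave 0.90 (adjusted p = 0.000414). Casp8, the death protease that Cflar holds in check, differed by -0.23 (adjusted p = 0.216) and was called lower only against Dgcr8 knockout eggs (-0.38, adjusted p = 0.0429), a call lost with 7 of the 9 arrays left out in turn.

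**Figure D4:**
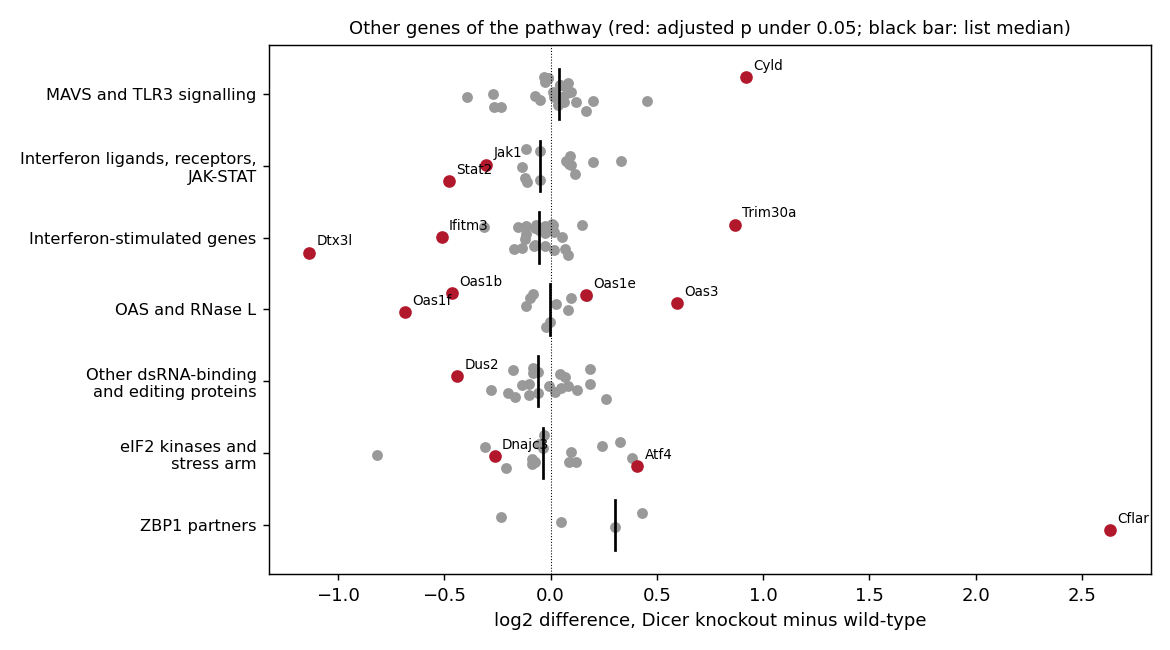
Log2 differences, Dicer knockout minus wild-type, of the tested genes in 7 lists of other pathway genes, 1 point per gene; red points with names have an adjusted p under 0.05 over all genes and black bars are list medians. Called genes lie on both sides of 0, from Dtx3l at -1.14 to Cflar at 2.63, and the medians of the lists other than the 5 partners of Zbp1 lie near 0. The Cflar point is its brightest probe set over all arrays, and its other probe sets hardly differed.

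Markers of cells that could carry innate sensors into the samples were set beside these values. Of 12 immune and blood markers tested, 1 was called higher in Dicer knockout against wild-type eggs, Cd68 (difference 0.96, adjusted p = 0.011), and none lower; their mean log2 signal per array lay between 4.97 and 5.42 in Dicer knockout and between 5.03 and 5.09 in wild-type arrays. The macrophage gene Lyz2 had 3.68, 3.93 and 6.13 in Dicer knockout arrays, against 4.01, 4.16 and 3.87 in wild-type arrays, so that only Dicer knockout replicate 3 was high. The leukocyte antigen Ptprc had 4.76, 4.84 and 4.84 in Dicer knockout arrays, against 4.88, 4.84 and 4.84 in wild-type arrays. Without Dicer knockout replicate 3, the differences of Ddx60 and Tlr3 were -1.88 and -0.86 (adjusted p = 0.00319 and 0.00557). Of 14 cumulus and granulosa markers 1 was called higher and none lower, with mean signals of 5.30 to 5.41 in Dicer knockout and 5.31 to 5.40 in wild-type arrays. Of 14 oviduct markers none was called higher and 1 lower, and their mean signals were 6.16 to 6.22 in Dicer knockout and 6.27 to 6.31 in wild-type arrays; the part of these cells in the results was not tested.

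The genes whose signal followed Ddx60 most closely over the 9 arrays were Sema6a, a transmembrane semaphorin (Pearson r = 0.987), Gabrq, a GABA receptor subunit (0.985), and Actr8, a subunit of a chromatin remodeller (0.983). For Tlr3 they were Fnbp4 (0.986), the histone chaperone Anp32e (0.977) and the RNA-binding protein Pum3 (0.975). Since the 3 Dicer knockout arrays stood apart from the other 6 in both genes, these values describe likeness of pattern and are no test. All 6 genes were lower in Dicer knockout than in wild-type eggs, with differences from -0.18 for Actr8 to -1.24 for Gabrq and adjusted p from 0.00155 for Anp32e to 0.0253 for Actr8; the calls of Actr8 and Fnbp4 were lost with some arrays left out. For Ddx58 the closest were Rnf181 (0.977), Serpine3 (0.961) and Brinp3 (0.956), and for Eif2ak2 they were Coro1a (0.968), Slc50a1 (0.965) and Armcx6 (0.958), none of which was called against wild-type eggs.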

How the data were processed

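The deposited table holds 1 log2 signal per probe set and array, which the authors made with GCRMA per the submitters' processing notes, with no version or settings stated there. No further normalization was applied, no value was missing and no 2 arrays were identical. The scale is relative, so a shift common to all transcripts would not show. The platform annotation named 1 gene for 21789 probe sets, several for 1621, and left 12147 unnamed here; the brightest probe set on average stood for a gene.

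The 3 comparisons were made in R 4.3.3 with limma 3.58.1 (lmFit and a robust, trended eBayes), two-sided, with all 9 arrays in 1 fit, no covariates and Benjamini-Hochberg adjustment over 17324 genes. The script was tested on simulated data. The 10 other fits were no floor, a floor at 6, quantile normalization, median centring, probe sets averaged per gene, every probe set on its own, plain eBayes, only the 2 genotypes compared, array weights and a replicate block; each array was also left out in turn. Precision rests on 3 arrays per genotype, and the 95% interval of a log2 difference reached 0.23 to either side at the median gene. The 9 genes and the lists were chosen with earlier results of these data known. Pathway genes named are up to 3 of each list by adjusted p among those called in any comparison; genes of like pattern are the 3 with the highest r, without predicted or RIKEN-type names. Deviations of samples with the same replicate number had r of -0.235 to 0.112, and those with different numbers -0.164 to 0.255. With 3 arrays per genotype these values cannot exclude a pairing, and the main fit used none. Promoters are RefSeq sequences; Dhx58 and Zbp1 were not matched.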

Additional observations from a re-analysis of the deposited data

How the results depend on the processing

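Ddx60 and Tlr3 remained lower and past the threshold in both comparisons with Dicer knockout eggs under all alternatives run, and no member was called in Dgcr8 knockout against wild-type eggs under any of them. Members called in Dicer knockout against Dgcr8 knockout eggs numbered 4, but 2 with only the 2 genotypes in the fit and 2 with the replicate block, and 2 to 4 with each array left out; the cause was not tested. The replicate block left the members called in the other comparisons at 2 and 0. All genes called numbered 1964 in Dicer knockout against wild-type eggs (1238 to 1959 with each array left out, lowest without wild-type replicate 3). They numbered 2321 against Dgcr8 knockout eggs (1511 to 2248, lowest without Dgcr8 knockout replicate 1). In Dgcr8 knockout against wild-type eggs they numbered 4 (2 with only those genotypes, and 2 to 4 with arrays left out). Over the 11 other alternatives run for the counts, these ranged from 1495 to 2757, from 1579 to 3271 and from 2 to 6, in the same order. These alternatives include a looser threshold, an adjusted p under 0.1, so the ranges do not show dependence on the processing alone.

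Signs turned only for differences near 0 that were never called. In Dgcr8 knockout against wild-type eggs, Ifih1 was at 0.0062 after quantile normalization and 0.0026 after median centring, and Ddx60 at 0.071 with array weights. With each array left out, the ranges there were -0.017 to 0.11 for Ddx58, -0.025 to 0.081 for Dhx58, -0.27 to 0.16 for Ddx60 and -0.12 to 0.046 for Mavs; that of Topors in Dicer knockout against wild-type eggs was -0.0019 to 0.10. With the floor at 6, Ifih1, Dhx58, Zbp1 and Eif2ak2 were not tested. Alternatives for genes other than the 9 were added after the data were seen.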

Other observations

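The genes next to the members on the chromosome were set beside them. The nearest tested genes around Ddx60 were Palld, with a log2 difference of -0.17 between Dicer knockout and wild-type eggs (limma adjusted p = 0.339), and Anxa10, with 0.22 (0.242). Around Tlr3 they were Fam149a (0.08, adjusted p = 0.642) and Sorbs2 (-0.12, 0.292). Around Ddx58 they were Aco1 (-0.19, adjusted p = 0.0767, but -0.23 and 0.0406 after quantile normalization) and Topors (0.05, 0.839). Around Eif2ak2 they were Gpatch11 (-0.25, adjusted p = 0.221) and Cebpzos (0.56, 0.447).

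Ifnb1 and Ifit1 were not called by limma in any comparison. Ifnb1, the first interferon made after sensing of double-stranded RNA, had a log2 signal of 4.06, 4.37 and 4.46 in Dicer knockout, 4.39, 4.25 and 4.36 in Dgcr8 knockout, and 4.23, 4.12 and 4.30 in wild-type arrays. Ifit1, an interferon-induced binder of foreign RNA ends, had 4.90, 4.89 and 4.54 in Dicer knockout, 4.82, 4.93 and 4.77 in Dgcr8 knockout, and 4.77, 5.07 and 4.84 in wild-type arrays. Over the 9 arrays, Ifnb1 lay between 4.06 and 4.46 and Ifit1 between 4.54 and 5.07, close to the filter at 4. No detection call was given, so how far above background these signals lay is not known. The absence of a call therefore does not show that either gene was unchanged. The groups overlapped in both genes, which were chosen after their values were seen. Ifnl2, an interferon lambda chosen likewise and also not called in any comparison, had 7.68, 7.66 and 7.76 in Dicer knockout, 7.47, 7.49 and 7.48 in Dgcr8 knockout, and 7.58, 7.60 and 7.63 in wild-type arrays, without overlap between the genotypes. Over all genes, non-overlap in these directions was seen for 10% (Dicer knockout above wild-type), 3.02% (Dgcr8 knockout below wild-type) and 10.2% (Dicer knockout above Dgcr8 knockout).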
